A study of Rattus norvegicus with 3 samples.

Results

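The chromatin modifiers and remodelers described here are the histone deacetylases, the sirtuins, the lysine demethylases (KDM) and methyltransferases (KMT), the SMARC, CHD, BRD and ARID proteins, the DNA methyltransferases (DNMT) and TET dioxygenases, and the macroH2A histones. Members were taken by gene symbol, with SIRT2 left out by the rule, and were chosen with earlier results of these data known. Of the 12771 entries of the deposited table, 82 are members. RNA was sequenced from the supernatant left after spinal cord of Sprague Dawley rats (females aged 3 months) was digested with a cold active protease and its cells were pelleted. The No-SCI rats had a laminectomy at T9 alone, the SCI rats had the same laminectomy followed by a contusion of 250 kdyne, and tissue just rostral to the injury was taken 24 h later. The sample labels list 2 No-SCI libraries and 1 SCI library, from the same tissue and the same protease treatment. The table gives 1 authors' value per group for each gene, in FPKM, which are fragments scaled by transcript length and by sequencing depth. No spread between animals, SD, n or test can therefore be given for any value below, and each difference is one between 2 group values.

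DNA in the nucleus is wrapped around histones. Deacetylases remove acetyl groups from histone tails, methyltransferases and demethylases set and remove methyl groups on lysines, and bromodomain proteins bind acetylated tails. Remodelers such as the BAF, ISWI and CHD complexes use ATP to move or evict nucleosomes. DNMT enzymes methylate cytosine and TET enzymes oxidise the methyl group, whereas macroH2A replaces H2A in some nucleosomes. In the nervous system many of these proteins are known from neuronal and glial differentiation, and several, among them HDAC5, HDAC6 and KDM6B, have been studied in axon growth or in the response to injury.

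A member is called higher or lower where the 2 groups differ by at least 2-fold, which is 1 on the log2 scale. This threshold counts sizes and is no test. By it 9 of the 82 members (11.0%) were called, against 20.0% of all entries. KDM6B, HDAC2, MACROH2A1 and ARID3A were higher in SCI, which is 4.88% of the members against 7.96% of all entries. HDAC11, KMT2C, KDM4B, HDAC5 and KMT5B were lower in SCI, which is 6.10% of the members against 12.1% of all entries. The other 73 members lay within 2-fold. The middle 50% of the members' log2 ratios spanned 0.72, while that of all entries spanned 0.98. The log2 ratios (SCI over No-SCI) had a median of −0.08 over the members and −0.12 over all entries, and centring all entries at 0 moves each log2 ratio up by 0.12 and the median of the members to 0.03. On that centred scale 42 members lay above and 40 below the median of all entries. As deposited, 47 of the 82 members and 7196 of the 12771 entries had a lower value in SCI.

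**Figure D1:**
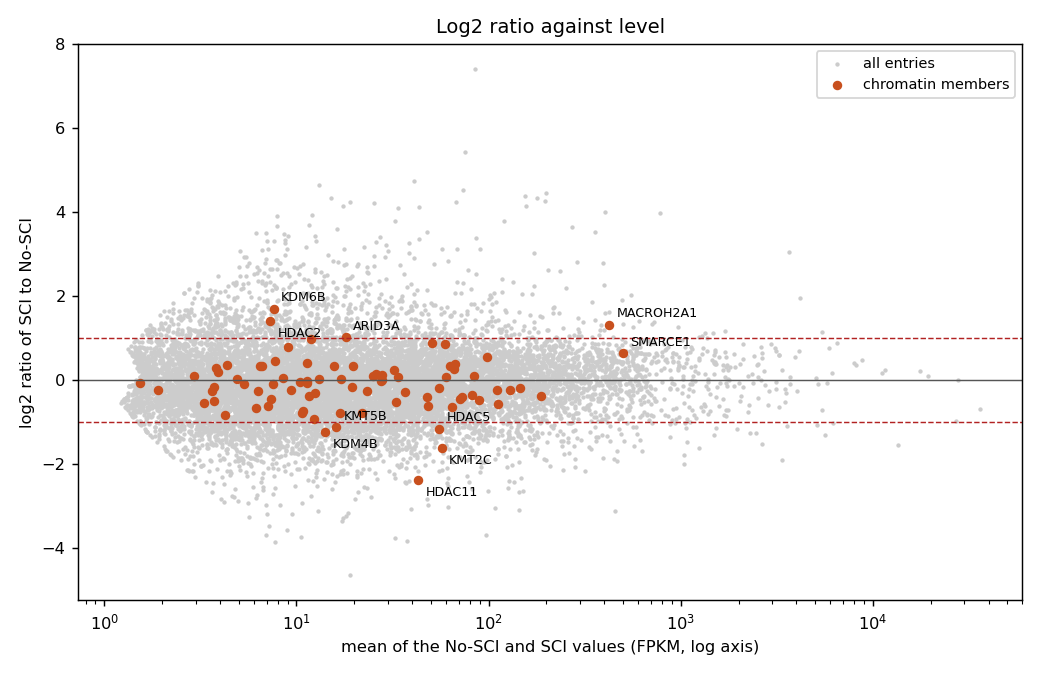
Log2 ratio of SCI to No-SCI (vertical axis) against the mean of the 2 group values in FPKM (horizontal log axis), with all 12771 entries in grey, the 82 chromatin members in orange and dashed lines at 2-fold. Outside the dashed lines are 9 members, from KDM6B at 1.70 to HDAC11 at −2.37, and SMARCE1 and MACROH2A1 stand to the right of the other members.

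In level, the members sat near the middle of the table. Their median was 18.6 FPKM in No-SCI and 15.9 FPKM in SCI, against 17.2 and 15.6 FPKM for all entries. They ran from 1.57 FPKM for DNMT3B to 390 FPKM for SMARCE1 in No-SCI. Above 100 FPKM were 8 members in No-SCI and 7 in SCI. No member was listed at 1, the lowest value in the table, and 12 had a mean under 5 FPKM, where that limit leaves little room for a lower value.

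**Figure D2:**
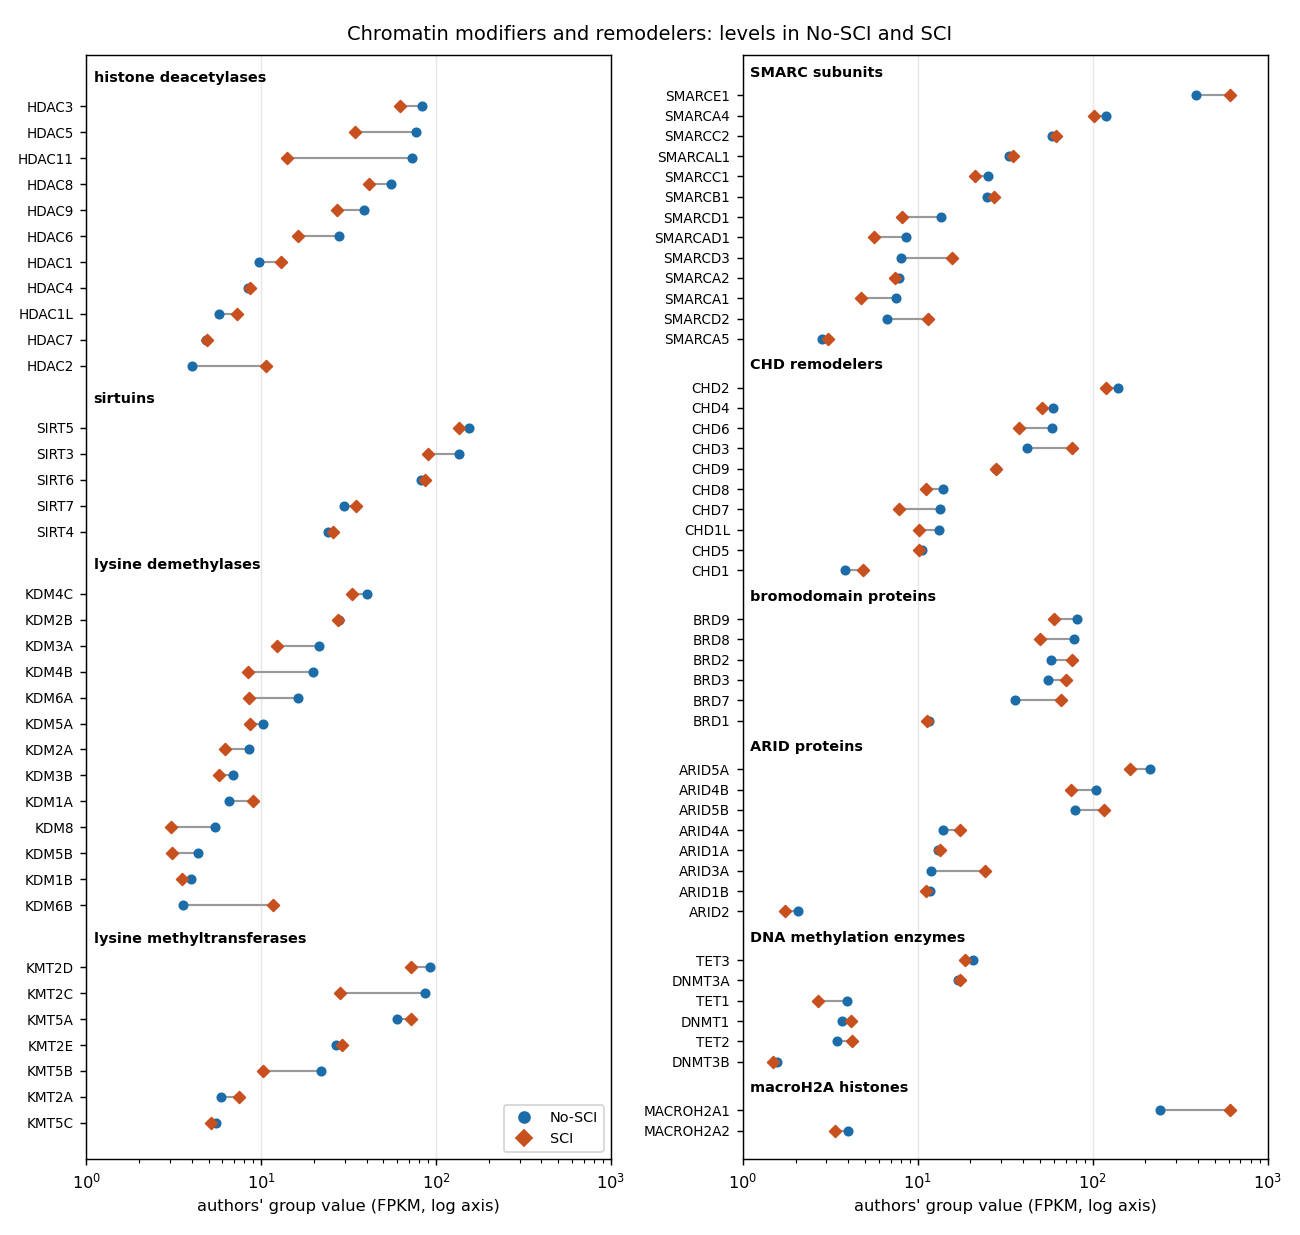
Authors' group values of 81 of the 82 members in FPKM on a log axis, with No-SCI as blue circles and SCI as orange diamonds joined by a line, ordered within each class by the No-SCI value. The longest line is that of HDAC11, from 72.4 to 14.0 FPKM, and SMARCE1 and MACROH2A1 are the members with the highest values in SCI, at 612 and 607 FPKM.

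Marker genes of several cell types also differed between the groups. The marker lists were chosen with earlier results of these data known, so their counts describe and do not test. Of all entries 7.96% were called higher and 12.1% lower, and 7196 of the 12771 had a lower value in SCI. Of 11 listed oligodendrocyte markers 10 had a lower value in SCI and 7 were called lower. The summed level of the 11 went from 88445 to 48315 FPKM. MOBP (44200 and 27648 FPKM, log2 ratio −0.68) and BCAS1 (36068.5 and 18311 FPKM, −0.98) carried most of this sum, and neither was called. Of 9 astrocyte markers 8 had a lower value and 6 were called lower (sum 14252 to 9069 FPKM), and of 10 neuronal markers 9 had a lower value and 4 were called lower (sum 992 to 559 FPKM). NDRG2 (8001 and 3228 FPKM, log2 ratio −1.31) and GLUL (5858 and 5624 FPKM, −0.06) carried most of the astrocyte sum. The 9 meningeal fibroblast markers were all called higher (sum 54.8 to 804 FPKM), and 6 of 7 skeletal muscle markers were called lower (sum 416 to 41.9 FPKM). The 11 microglia and macrophage markers were split, with 1 called higher and 3 lower (sum 1184 to 1284 FPKM), and of 5 endothelial markers 1 was called higher (sum 35.2 to 42.9 FPKM). Among the defining markers, MBP, GFAP, AQP4, SLC1A3, SNAP25, NEFM and PECAM1 have no entry in the table used here. In bulk RNA, fewer cells or processes of a type and less RNA in each cannot be told apart, and the part of these markers in the results below was not tested.

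The macroH2A histones carry a large non-histone domain on an H2A core and are associated with silent chromatin. MACROH2A1 had 244 FPKM in No-SCI and 607 FPKM in SCI, 2.49-fold higher or a log2 ratio of 1.32. It thereby moved from rank 843 to rank 308 of all entries and from 7.05% to 16.5% of the summed level of the 82 members. Its paralog MACROH2A2 went the other way within a narrow range, from 3.97 to 3.34 FPKM (log2 ratio −0.25). MACROH2A1 was thus 61.3 times as abundant as MACROH2A2 in No-SCI and 182 times in SCI, a ratio that no scaling between the groups can change. MACROH2A2 is under 5 FPKM in both groups, however, so the size of both ratios is uncertain. As deposited, the members as a list summed to 3456 FPKM in No-SCI and 3686 FPKM in SCI. Without MACROH2A1 the sum went the other way, from 3212 to 3079 FPKM, a log2 ratio of −0.06. Centring moves each log2 ratio up by 0.12, so the direction of the sum without MACROH2A1 depends on the scaling.

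Among the 11 histone deacetylases of the zinc-dependent classes, 6 had a lower and 5 a higher value in SCI, with a median log2 ratio of −0.41. HDAC11, the single class IV enzyme, which removes long fatty acyl groups as well as acetyl groups, had 72.4 FPKM in No-SCI and 14.0 FPKM in SCI. This 5.17-fold lower value (log2 ratio −2.37) is the largest difference of any member, and its rank went from 2542 to 6723. The oligodendrocyte markers ran from −2.65 to 0.31 on the log2 scale, with a median of −1.62, and the skeletal muscle markers from −4.64 to −0.77, with a median of −3.68. The other marker medians were −1.31 (astrocyte), −0.75 (neuron), −0.15 (microglia and macrophage), 0.17 (endothelial) and 2.93 (meningeal fibroblast). Any link of HDAC11 to these markers was not tested. HDAC5, a class IIa enzyme that shuttles between nucleus and cytoplasm, had 76.6 FPKM in No-SCI and 34.5 FPKM in SCI, 2.22-fold lower. The other class IIa genes were HDAC9, with 38.9 and 27.3 FPKM, HDAC4, with 8.36 and 8.65 FPKM, and HDAC7, with 4.85 and 4.92 FPKM. HDAC5 thus went from 59.5% to 45.8% of the class IIa sum, which itself went from 129 to 75.3 FPKM. HDAC6, the cytoplasmic class IIb deacetylase that acts on tubulin, had 27.9 FPKM in No-SCI and 16.2 FPKM in SCI (log2 ratio −0.79), short of 2-fold.

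The class I deacetylases, which are mostly nuclear and work in corepressor complexes, were divided by level. The abundant pair was lower in SCI, HDAC3 with 82.6 and 62.2 FPKM and HDAC8 with 54.9 and 41.3 FPKM, each with a log2 ratio of −0.41. The scarcer genes were higher. HDAC2, a catalytic subunit of the NuRD, SIN3 and CoREST complexes, had 3.99 FPKM in No-SCI and 10.6 FPKM in SCI, 2.66-fold higher or a log2 ratio of 1.41. Its No-SCI value is under 5 FPKM, and the log2 ratio was 1.22 with 1 added to both values and 1.68 with 1 subtracted. HDAC1, which shares these complexes with HDAC2, had 9.74 and 13.0 FPKM (log2 ratio 0.41), and the gene listed as HDAC1L had 5.73 and 7.28 FPKM (0.35). HDAC1L and HDAC1 may share reads, so how their level divides between them is uncertain. HDAC1 was 2.44 times as abundant as HDAC2 in No-SCI and 1.22 times in SCI.

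The sirtuins are NAD-dependent deacylases, and none of the 5 listed was called, against 20.0% of all entries. SIRT5 and SIRT3, which work in mitochondria, were the most abundant, with 155 and 134 FPKM in No-SCI and 136 and 89.9 FPKM in SCI. The log2 ratio of SIRT3 was −0.58 and that of SIRT5 −0.18. The third mitochondrial gene, SIRT4, had 24.2 and 25.8 FPKM. Nuclear SIRT6 and SIRT7 went from 81.6 to 86.8 FPKM and from 29.5 to 34.9 FPKM, log2 ratios of 0.09 and 0.24. As summed levels, the mitochondrial genes went from 313 to 252 FPKM and the nuclear pair from 111 to 122 FPKM.

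Of the 13 lysine demethylases 11 had a lower value in SCI, the most one-sided class, with a median log2 ratio of −0.30, or −0.18 relative to all entries. Relative to the median of all entries 10 of the 13 were lower. The largest exception, with the highest log2 ratio of any member, was KDM6B, a JmjC enzyme that removes methyl groups from lysine 27 of histone H3 and is known as inducible in inflammation. KDM6B had 3.59 FPKM in No-SCI and 11.7 FPKM in SCI, 3.26-fold higher or a log2 ratio of 1.70. The No-SCI value of KDM6B is under 5 FPKM, so the size of this ratio is uncertain. It was 1.47 with 1 added to both values and 2.05 with 1 subtracted. KDM6A, which acts on the same lysine, had 16.2 FPKM in No-SCI and 8.50 FPKM in SCI, a log2 ratio of −0.93. The summed level of the pair was nearly the same in both groups, 19.7 and 20.2 FPKM, but KDM6A made up 81.8% of it in No-SCI and 42.1% in SCI. The order of the pair as listed was thus turned. Of the pair, only KDM6B has a value with more than 6 significant digits. Such a value may be a sum over several entries, so its level may be less comparable with that of KDM6A.

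The JmjC demethylases that act on lysines 9 and 36 of histone H3 were lower in all 6 cases as deposited, with a sum of 125 FPKM in No-SCI and 92.9 FPKM in SCI. KDM4B had 19.8 and 8.42 FPKM, 2.35-fold lower, and was called, whereas KDM4C, the more abundant of the pair, had 40.5 and 33.0 FPKM (log2 ratio −0.30). KDM3A, which is induced by hypoxia in many cells, had 21.3 and 12.3 FPKM (log2 ratio −0.79) and KDM3B 6.88 and 5.71 FPKM. KDM2A had 8.51 and 6.19 FPKM, and KDM2B 27.9 and 27.3 FPKM, whose log2 ratio of −0.03 turns positive under each of the 3 scalings tried. For lysine 4 of histone H3, KDM5A (10.2 and 8.61 FPKM), KDM5B (4.38 and 3.10 FPKM) and KDM1B (3.96 and 3.52 FPKM) were lower in SCI. KDM1A, the amine oxidase of the CoREST complex, was higher, with 6.56 and 9.01 FPKM. KDM8 had 5.47 FPKM in No-SCI and 3.06 FPKM in SCI, a log2 ratio of −0.84.

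Of the 7 lysine methyltransferases 2 were called lower (28.6%, against 12.1% of all entries), a share that rests on these 2 genes. KMT2C and KMT2D are the large, partly redundant enzymes that methylate lysine 4 of histone H3 at enhancers. They had nearly equal levels in No-SCI, 85.8 FPKM for KMT2C and 92.3 FPKM for KMT2D, but KMT2C had 28.1 FPKM in SCI and KMT2D 71.8 FPKM. KMT2C was therefore 3.06-fold lower (log2 ratio −1.61), and KMT2D was 1.08 times as abundant as KMT2C in No-SCI and 2.56 times in SCI. KMT2A went from 5.89 to 7.43 FPKM and KMT2E, an atypical member of the family, from 26.7 to 29.0 FPKM. KMT5A, which adds the first methyl group to lysine 20 of histone H4, went from 59.5 to 72.0 FPKM. KMT5B, which adds further methyl groups to it, went from 22.1 to 10.2 FPKM, 2.17-fold lower, and KMT5C, which does the same, from 5.49 to 5.18 FPKM. The sums of the KMT5 genes lay close together, at 87.1 and 87.3 FPKM, with KMT5A at 68.3% of it in No-SCI and 82.4% in SCI.

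**Figure D3:**
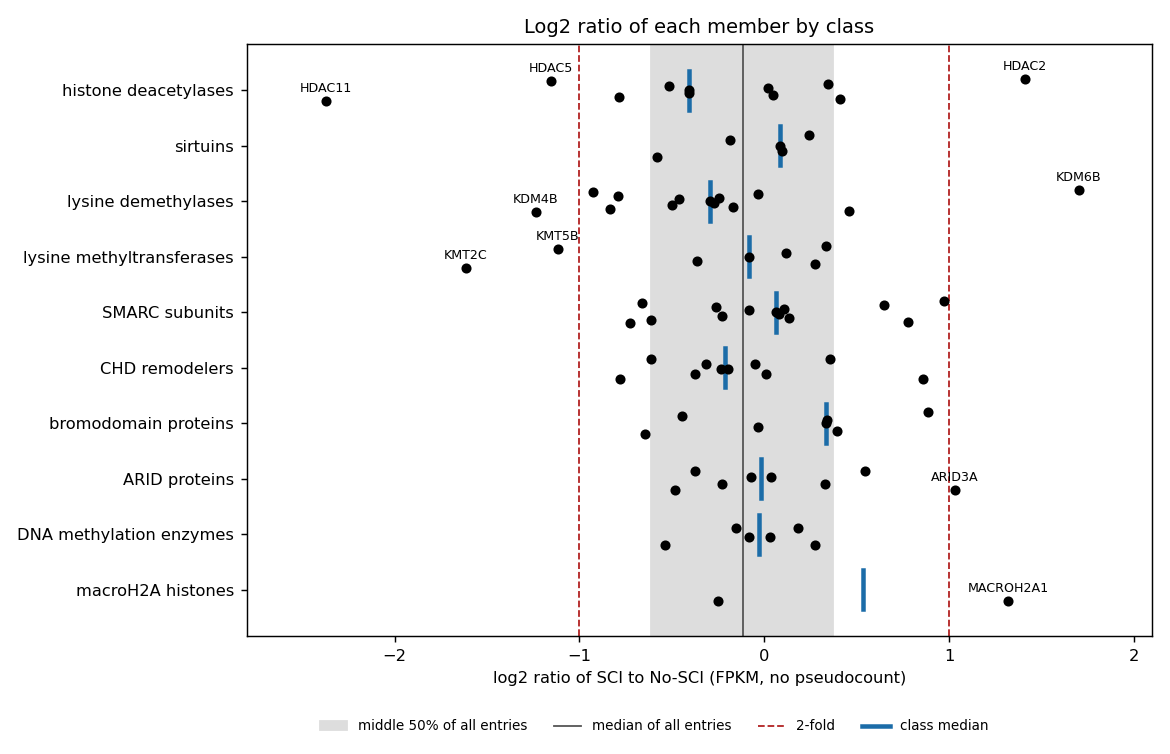
Log2 ratio of SCI to No-SCI (horizontal axis) for each member, by class, with the class median in blue, the median and middle 50% of all entries in grey and 2-fold as dashed lines. Demethylases lie mostly left of 0 with KDM6B alone far to the right. The SMARC, CHD, bromodomain, sirtuin and DNA methylation classes have no member past 2-fold, where 20.0% of all entries lie.

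The 13 SMARC genes encode BAF subunits and related ATPases, and none was called as deposited, against 20.0% of all entries. Their median log2 ratio was 0.07, or 0.18 relative to all entries. SMARCE1, a BAF subunit with an HMG box that binds DNA, was the most abundant of all members, with 390 FPKM in No-SCI and 612 FPKM in SCI (log2 ratio 0.65). Its value alone carried most of the class sum, which went from 707 to 915 FPKM. Of the alternative BAF motor subunits, SMARCA4 had 120 and 102 FPKM and SMARCA2 7.79 and 7.35 FPKM, and SMARCA4 made up 93.9% of their sum in No-SCI and 93.3% in SCI. The core subunits SMARCB1 (24.7 and 27.2 FPKM), SMARCC1 (25.3 and 21.1 FPKM) and SMARCC2 (58.6 and 61.3 FPKM) had log2 ratios between −0.26 and 0.14.

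The SMARCD subunits, of which a BAF complex uses 1 kind at a time, went in different directions. SMARCD1 had 13.5 FPKM in No-SCI and 8.14 FPKM in SCI, whereas SMARCD2 had 6.69 and 11.5 FPKM and SMARCD3 8.01 and 15.7 FPKM. SMARCD3 was 1.96-fold higher, just short of 2-fold as deposited, but past it under each of the 3 scalings tried. SMARCD1 thus had the largest share of the 3 genes in No-SCI, 47.8%, and the smallest in SCI, 23.0%, and SMARCD3 went from 28.4% to 44.5%. Outside BAF, the ISWI motors SMARCA1 (7.53 and 4.76 FPKM) and SMARCA5 (2.83 and 3.06 FPKM) were scarce in both groups. SMARCAD1 had 8.59 and 5.61 FPKM, and SMARCAL1, which works at stalled replication forks, 33.0 and 34.9 FPKM.

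Of the 10 CHD remodelers 7 had a lower value in SCI, as had 7196 of the 12771 entries. Relative to the median of all entries 6 of the 10 were lower. None was called, against 20.0% of all entries. CHD2 was the most abundant, with 139 FPKM in No-SCI and 119 FPKM in SCI. Among the alternative motors of the NuRD complex, CHD4 had 59.0 and 51.6 FPKM and CHD5, which is known from neurons, 10.6 and 10.2 FPKM. CHD3 went the other way, from 42.1 to 76.4 FPKM (log2 ratio 0.86), so that CHD4 held the largest share of the 3 in No-SCI, 52.8%, and CHD3 in SCI, 55.3%. CHD6 (58.3 and 38.1 FPKM), CHD7 (13.5 and 7.84 FPKM), which acts in oligodendrocyte differentiation, and CHD8 (13.9 and 11.2 FPKM) were lower in SCI, with log2 ratios of −0.61, −0.78 and −0.32. CHD9 had 27.8 and 28.0 FPKM, CHD1 3.82 and 4.88 FPKM and CHD1L 13.1 and 10.2 FPKM.

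The bromodomain class had the highest median log2 ratio of the classes with more than 2 genes, 0.34. Its genes went in both directions, however, with BRD9, BRD8 and BRD1 lower in SCI as deposited, so the class was not raised as a whole. BRD2, which binds acetylated histones at active genes, had 58.0 FPKM in No-SCI and 76.1 FPKM in SCI, a log2 ratio of 0.39. BRD3, a close relative of it, had nearly the same levels, 55.6 and 70.4 FPKM (log2 ratio 0.34), and neither reached 2-fold. BRD7, a subunit of the PBAF form of the BAF complex, had 35.9 FPKM in No-SCI and 66.3 FPKM in SCI (log2 ratio 0.88), and BRD9, a subunit of another form, 81.5 and 59.9 FPKM (−0.44). BRD9 was 2.27 times as abundant as BRD7 in No-SCI and 0.904 times in SCI. BRD8, of the TIP60 acetyltransferase complex, had 78.3 and 50.2 FPKM, and BRD1 11.5 and 11.3 FPKM.

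The ARID proteins share a DNA-binding domain, and 1 of 8 (12.5%) was called, against 20.0% of all entries. ARID3A, a transcription factor, had 11.9 FPKM in No-SCI and 24.3 FPKM in SCI, 2.04-fold higher, and a pseudocount of 1 takes it below 2-fold. The BAF subunits ARID1A (13.0 and 13.3 FPKM), ARID1B (11.7 and 11.1 FPKM) and ARID2 (2.05 and 1.75 FPKM) differed little. ARID5A was the most abundant, with 212 and 164 FPKM, and ARID5B had 79.6 and 116 FPKM, so the ratio of ARID5A to ARID5B went from 2.66 to 1.41. The SIN3 complex partners ARID4A and ARID4B had 13.9 and 17.4 FPKM and 104 and 74.7 FPKM. Taking the 14 listed BAF and PBAF subunits of the SMARC, ARID and BRD classes as 1 group, 7 had a higher and 7 a lower value in SCI. None of the 14 was called, against 20.0% of all entries, and their median log2 ratio was −0.02.

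**Figure D4:**
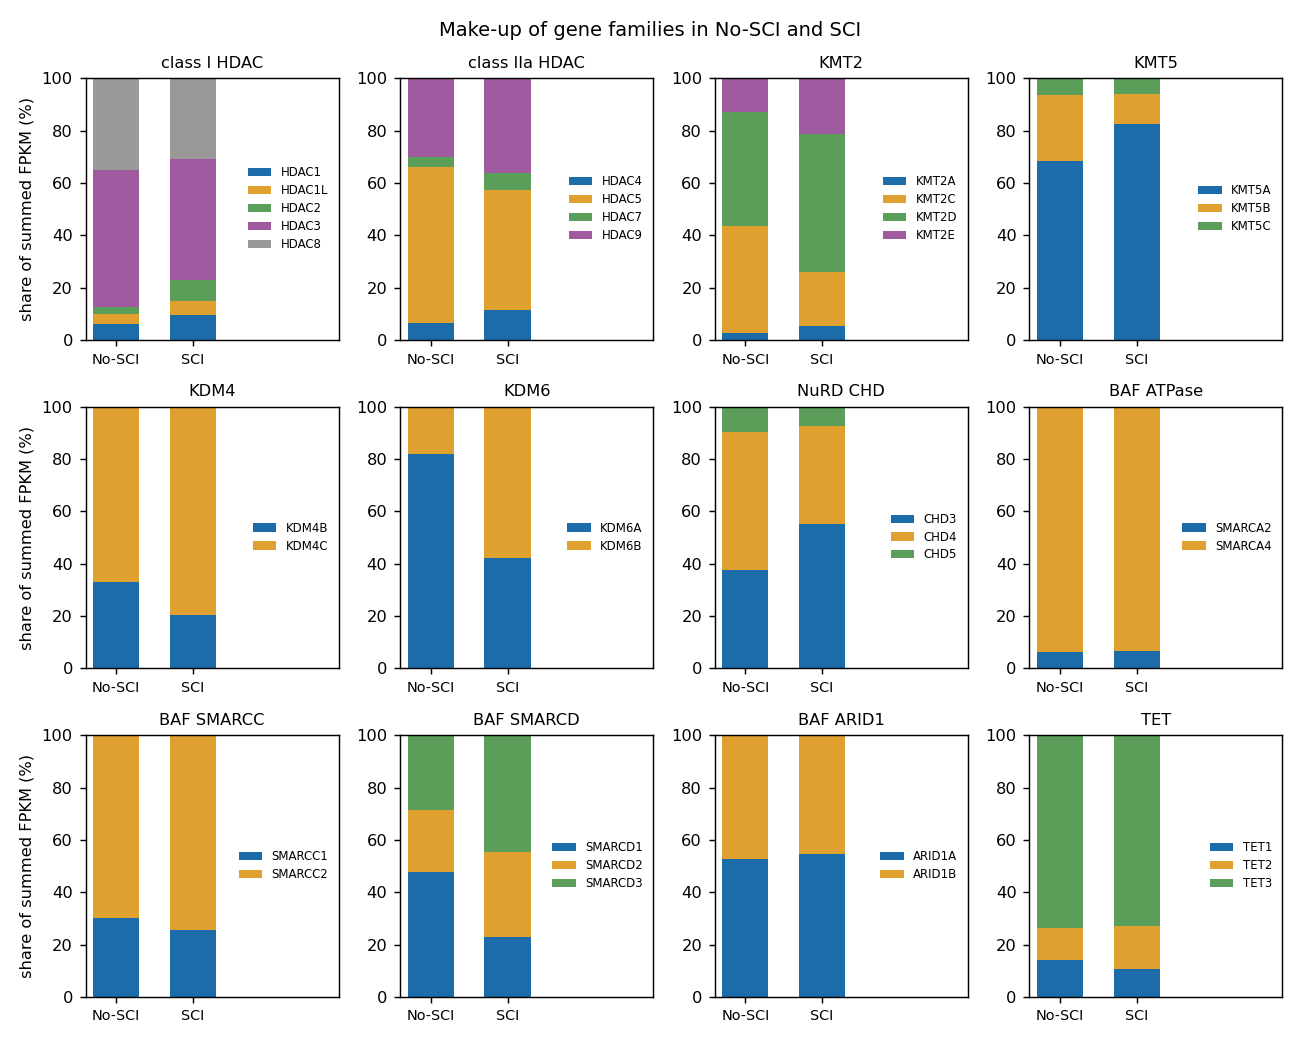
Share of each gene in the summed FPKM of its family (vertical axis, percent) in No-SCI and SCI, for 12 families. The bars of KDM6, SMARCD, the NuRD CHD genes and KMT2 differ most between the groups, and those of the BAF ATPases and ARID1 hardly at all.

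None of the 6 DNA methylation enzymes was called, against 20.0% of all entries. DNMT3A, a de novo methyltransferase, had 17.0 FPKM in No-SCI and 17.3 FPKM in SCI, DNMT1, which maintains methylation after replication, 3.67 and 4.16 FPKM, and DNMT3B 1.57 and 1.49 FPKM. TET3 was the most abundant TET enzyme with 20.6 and 18.5 FPKM, while TET1 had 3.91 and 2.69 FPKM and TET2 3.47 and 4.20 FPKM. The 6 log2 ratios ran from −0.54 to 0.28, and 4 of the 6 genes were under 5 FPKM in both groups.

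The signs of 7 members with log2 ratios near 0 depend on the scaling. KDM2B, KMT5C, SMARCA2, CHD5, BRD1, ARID1B and DNMT3B were lower as deposited and turned higher when all entries were centred at 0. The 9 called members kept their direction under all alternatives they entered. Just past the 2-fold threshold were ARID3A (1.03) and KMT5B (−1.12), and just short of it SMARCD3 (0.97) and KDM6A (−0.93), on the log2 scale.

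Chromatin genes outside these classes were read from 8 further lists of acetyltransferases, other methyltransferases and demethylases, Polycomb proteins, other BAF subunits, other remodelers, corepressors, and histone variants and chaperones, of which 126 of 152 genes are in the table. Of these 18 (14.3%) were called, 10 higher and 8 lower, against 20.0% of all entries, and their median log2 ratio was −0.05. The largest higher ratios were those of INO80B, a subunit of the INO80 remodeler (4.15 and 19.8 FPKM, log2 ratio 2.25), BCL7C, a BAF subunit (25.7 and 108 FPKM, 2.08), and CBX1, a heterochromatin protein (13.2 and 38.1 FPKM, 1.53). The No-SCI value of INO80B is under 5 FPKM, so the size of its ratio is uncertain. The largest lower ratios were those of SETDB1, an H3K9 methyltransferase (19.8 and 8.13 FPKM, −1.29), EZH1, a catalytic Polycomb subunit (56.96 and 23.97 FPKM, −1.25), and JARID2, a Polycomb cofactor (15.4 and 6.71 FPKM, −1.20). The list of 24 other methyltransferases held 4 called lower and 1 called higher, in all 20.8%, which is near the 20.0% of all entries.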

How the data were processed

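The authors removed ribosomal RNA, made strand-specific total RNA libraries from the supernatant, reduced all libraries to the read number of the smallest, aligned reads to rn6 with STAR 2.5.4b and estimated 1 FPKM value per group with Cuffdiff 1.3.0 and upper quartile normalization. The methods give 2 animals per condition, whereas the labels list 2 No-SCI libraries and 1 SCI library. The deposited FPKM values were used. The p-values, q-values, significance calls and fold changes that the table also holds are the authors' own comparison and were not used, and with 1 value per group no other test was possible. Depth behind each value and spread between animals are unknown, and no measurement column lacked a group. From the values, log2 ratios without a pseudocount, ranks, family shares and list medians were computed with Python 3.11.15, numpy 2.4.6 and pandas 2.3.3, and figures were drawn with matplotlib 3.10.9. A fold of 2 was used to count, and the counting steps were tested on simulated data. All 82 members matched a symbol of the GRCr8 RefSeq table, which was used for names alone, and each has 1 entry. Where another symbol had several entries, the one with the larger mean was used for lists. The values of 1 member, counted with the others, are not reported here. Every other member may be named, and of the other chromatin lists the 3 with the largest ratio in each direction. Members and lists were chosen with earlier results of these data known.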

Additional observations from a re-analysis of the deposited data

How the results depend on the processing

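The table holds no value per library, so no replicate could be left out, and no paired analysis was possible because the result comes from no test and the groups share no replicate number. With no spread known, a median was counted as moved when it shifted by 0.1 or more on the log2 scale or changed sign, and a count when it changed by more than 1.5 times. The median log2 ratio of the members changed sign to 0.033 when all entries were centred at 0 and to 0.019 with equal upper quartiles, and was −0.24 over the 22 members left when entries with more than 6 significant digits were dropped. Such values may be sums over several entries of a symbol, which was not tested and would make levels of different genes less comparable. This limit bears on the orders, shares and ratios between genes given above. KDM6B, KMT2C and MACROH2A1 have such values, whereas KDM6A, KMT2D and MACROH2A2, to which they were compared, have not. No called member was among those 22, which gives 0 higher and 0 lower. With a fold of 1.3, 13 members were higher and 24 lower (24.6% and 35.7% of all entries). With a fold of 1.5 the counts were 9 and 15 (16.9% and 26.3%), and with a fold of 3 they were 1 and 2 (3.17% and 3.27%). Under pseudocounts of 1 and 0.1, subtraction of 1, the 3 scalings and a mean of at least 5 FPKM, between 3 and 6 members were higher and between 5 and 7 lower. SMARCD3 passed 2-fold when centred (1.09), with equal totals (1.02), with equal upper quartiles (1.08) and with 1 subtracted (1.07). Centring also put BRD7 (1.002) past 2-fold, and subtraction of 1 put KDM6A (−1.02) and KDM8 (−1.11) past it. The medians of all 10 classes were counted as moved when centred and with equal upper quartiles, which shift every ratio alike. With equal totals 2 class medians moved, with a mean of at least 5 FPKM 3, and with the mean in place of the median 4. Without entries of more than 6 significant digits, 6 class medians moved and 3 did not. Pseudocounts and subtraction of 1 moved none.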

Other observations

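Of the genes that the classes would hold, SIRT1, HDAC10, KDM4A, KDM4D, KDM5C, KDM5D, KDM7A, KMT2B, ARID3B, ARID3C and DNMT3L have no entry in the table used here and were not analysed.

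Among the histone variants and chaperones outside the rule, H2AJ, an H2A variant, had 243 FPKM in No-SCI and 554 FPKM in SCI, a log2 ratio of 1.19. Its levels lie close to those of MACROH2A1, which had 244 and 607 FPKM. MBD3, the NuRD subunit that is related to methyl-CpG binding proteins, had 191 and 395 FPKM, a log2 ratio of 1.05. ACTL6B, the neuronal form of a BAF actin-like subunit, had 7.44 and 3.56 FPKM, a log2 ratio of −1.07. These 3 genes were chosen after their values were seen.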
